A study of Mus musculus with 2 samples.

Results

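The 7 genes *Serpina3f*, *Serpina3g*, *Serpinb6a*, *Serpinb6b*, *Serpinb9*, *Serpinb9b* and *Serpinb1a* encode serpins, a family of protease inhibitors, and are described here in lymphocytes of the mouse liver. They were found as the rows carrying these symbols, 7 of the 62 rows whose symbol begins with Serpin and of 28692 gene rows in all. They had been chosen by their UMI levels, as serpins that stand among the leading genes of several lymphocyte groups, so these levels over cell classes are given below as a description and without a test. Together they held 18610 of the 19935 serpin UMIs (unique molecular identifiers, each standing for 1 captured RNA molecule) of the gated lymphocytes, or 93.35%.

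CD45+ leukocytes had been sorted from mouse liver and analyzed by droplet-based single-cell RNA-Seq, with 1 library from vehicle-treated mice and 1 library from mice that drank metronidazole and ampicillin at 1 mg/mL each together with neomycin and vancomycin at 0.5 mg/mL each. Treatment lasted 1 week, and the animals were 6-week-old females. The comparison addresses how the hepatic immune compartment differs when the gut bacteria have been depleted. The number of mice behind each library is not stated. With 1 library per condition there is no replicate check, so no p value is given, every interval covers counting error only, and a difference between the libraries cannot be told apart from a difference between mice, sorts or captures.

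The vehicle library held 41474311 UMIs and the antibiotic library 29811401. Barcodes with at least 1500 UMIs and under 10% mitochondrial UMIs were kept as cells, 9002 from vehicle with a median of 3515 UMIs and 7050 from antibiotic with a median of 3331 UMIs. The libraries shared 93 cell barcodes where 86.1 would follow from the 2 cell numbers and the barcode list alone. Cells were placed in 5 classes by UMIs of a few lineage genes, taken in order. B cells held at least 2 UMIs of *Cd79a* and none of *Cd3e* (3016 vehicle and 1340 antibiotic cells), and plasmacytoid dendritic cells (pDC) at least 2 of *Siglech* (174 and 34). NK cells held at least 1 UMI of *Ncr1* and none of *Cd3d*, *Cd3e* or *Cd3g* (256 and 99). NKT-like cells held at least 1 UMI of *Trac* and at least 1 of *Cxcr6* (3514 and 4175), and other T cells at least 2 of *Trac* and none of *Cxcr6* (786 and 650). The remaining 1256 and 752 cells fitted no gate. Levels are in CPM, the UMIs of a gene summed over the cells of a class and scaled to a class total of 1000000 UMIs, with an exact 95% Poisson interval where one is given.

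Markers that the gates did not use followed the class names for 4 of the 5 classes. All 6 B cell markers and all 6 pDC markers were highest in their own class in both libraries, as were 6 of 7 NK markers. The NKT-like class was the least distinct, with 2 of 5 such markers highest in it in vehicle (*Zbtb16* and *Trav11*) and 3 in antibiotic, and the other T class had 5 of 6 and 6 of 6. *Cd3d* and *Cd3e* were left out of these counts because the gates read them. The NKT-like class is therefore best read by its gate, since the *Cxcr6* and *Trac* gate takes any *Cxcr6*+ T cell. Summed myeloid markers reached 3381 CPM in the pDC class of the vehicle library and 126 in that of the antibiotic library, and stood at 779 and 23.4 in the NK class. Summed hepatocyte markers stayed between 15.1 and 49.9 CPM in the vehicle classes and between 0 and 10.1 in the antibiotic classes.

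Inhibitory serpins present a flexible loop to a protease as bait. When the protease cuts the loop the serpin snaps into a new fold and drags the enzyme along as an inactive covalent complex. Members of clade B lack a classical secretion signal and work inside cells, where cytotoxic lymphocytes use them against granzymes that leak from their own granules and myeloid cells use them against granule proteases. Clade A members are mostly secreted, as is the alpha-1-antitrypsin made by hepatocytes, but the mouse *Serpina3* family has expanded and includes an intracellular member, *Serpina3g*, known as an inhibitor of lysosomal cathepsins in lymphocytes. *Serpinb9* inhibits granzyme B, *Serpinb9b* granzyme M, *Serpinb6b* the mouse granzyme A and *Serpinb6a* cathepsin G, while *Serpinb1a* inhibits neutrophil elastase, cathepsin G and proteinase 3.

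The genes lie in 2 clusters of the GRCm38 genome, according to the GENCODE M21 annotation. *Serpina3f* (chr12:104214544-104221129, plus strand) and *Serpina3g* (chr12:104236245-104241939, plus strand) are neighbors within 27.4 kb. The 5 clade B members spread over 1160.7 kb of chromosome 13 together with other serpins, 15 coding serpin genes in all. *Serpinb1a* is at chr13:32842092-32851185 on the minus strand. *Serpinb6b* (chr13:32965209-32979067), *Serpinb9* (chr13:33003250-33017957) and *Serpinb9b* (chr13:33027416-33041884) follow it on the plus strand. *Serpinb6a* (chr13:33917918-34002794, minus strand) stands apart and overlaps *Nqo2*, *Ripk1* and the antisense gene *1110046J04Rik* on the other strand, and *Serpinb9b* overlaps the antisense gene *Gm36099*. Whether strand was used in counting is not stated, so UMIs of these 2 genes could include some of the overlapping genes.

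Because the assay reads the 3′ end, near-identical copies matter most there. Of the 50-base words in the last 400 bases of the annotated transcripts, 19.7% of those of *Serpina3g* also occur in other genes, among them *Serpina3f*, *Serpina3h* and *Serpina3i*, and 3.64% of those of *Serpina3f*. For *Serpinb1a* the share was 3.56% and for *Serpinb6a* 2.49%, and it was 0 for *Serpinb6b*, *Serpinb9* and *Serpinb9b*. Levels of *Serpina3g* are therefore the least certain in this respect.

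The starts of 2 neighboring pairs are shown because the pairs differ in where they were detected and because interferon response letters occur in some of them. The windows run from 250 bases before to 50 bases after the start in RefSeq on GRCm38.p6, where 6 of the 7 members had an entry. Capitals mark a match to the STAT dimer motif TTCNNNGAA or to the interferon-stimulated response core of GAAA, any 2 bases and GAAA, both searched on both strands.
Serpina3f: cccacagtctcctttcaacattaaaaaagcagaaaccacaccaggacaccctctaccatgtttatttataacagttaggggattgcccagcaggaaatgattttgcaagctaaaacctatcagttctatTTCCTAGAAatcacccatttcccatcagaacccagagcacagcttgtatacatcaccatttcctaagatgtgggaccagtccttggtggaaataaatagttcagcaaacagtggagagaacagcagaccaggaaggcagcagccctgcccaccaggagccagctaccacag
Serpina3g: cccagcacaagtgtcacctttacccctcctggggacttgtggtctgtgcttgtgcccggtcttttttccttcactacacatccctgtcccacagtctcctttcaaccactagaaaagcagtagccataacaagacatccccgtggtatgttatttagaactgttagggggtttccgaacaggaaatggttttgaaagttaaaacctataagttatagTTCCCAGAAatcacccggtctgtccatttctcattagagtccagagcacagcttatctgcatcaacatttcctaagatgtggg
Serpinb9: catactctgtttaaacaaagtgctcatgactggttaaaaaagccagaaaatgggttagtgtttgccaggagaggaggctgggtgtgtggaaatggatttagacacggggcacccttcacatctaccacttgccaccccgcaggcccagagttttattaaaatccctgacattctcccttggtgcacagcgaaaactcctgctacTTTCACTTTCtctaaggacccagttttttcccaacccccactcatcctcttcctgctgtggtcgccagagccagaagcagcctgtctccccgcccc
Serpinb9b: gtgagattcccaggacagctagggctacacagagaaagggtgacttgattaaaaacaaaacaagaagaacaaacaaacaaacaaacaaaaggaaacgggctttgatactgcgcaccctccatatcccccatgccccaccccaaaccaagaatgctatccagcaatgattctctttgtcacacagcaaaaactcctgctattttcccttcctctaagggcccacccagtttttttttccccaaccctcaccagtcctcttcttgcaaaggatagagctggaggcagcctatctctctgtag
These are chr12:104214294-104214593, chr12:104235897-104236196, chr13:33004291-33004590 and chr13:33027164-33027463, all on the plus strand. The match in *Serpina3f* spans bases -121 to -113 from the start and that in *Serpina3g* bases -33 to -25, while in *Serpinb9* the response core lies on the reverse strand at -46 to -37 and *Serpinb9b* holds neither motif. From another RefSeq start of *Serpina3f* the same match spans -210 to -202. The GENCODE start of *Serpina3g* given above lies beyond the end of its window, so these positions depend on the start taken. Of 32851 mouse promoter windows of the same length, 8.30% hold the first motif and 3.44% the second, so a match is no rarity. Among the windows not shown, that of *Serpinb6a* at chr13:34002745-34003044 holds 2 matches to the first motif and 1 to the second. The window of *Serpinb6a* at chr13:33936034-33936333 and that of *Serpinb6b* hold neither. Over the 214 aligned columns the *Serpina3f* and *Serpina3g* windows were 79.0% identical, and over 216 columns those of *Serpinb9* and *Serpinb9b* were 70.4% identical.

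*Serpinb9*, the inhibitor of granzyme B, was highest in NK cells. It stood at 253 CPM in the vehicle library (203 UMIs) and 207 in the antibiotic library (53 UMIs), against 30.3 and 29.0 in NKT-like cells. Other T cells held 12.6 and 24.5, pDC 16.9 and 9.33, and B cells 5.61 and 4.15. NK cells thus held 8.36 times the level of the next class in vehicle (95% interval 7.07 to 9.86) and 7.12 times in antibiotic (5.26 to 9.47). After every cell had been thinned to 1500 UMIs, 32.8% of vehicle NK cells and 27.3% of antibiotic NK cells held a *Serpinb9* UMI, against 46.9% and 36.4% without thinning. In B cells, the class with the lowest level, the thinned shares were 0.829% and 0.672%, at median depths of 2527 and 2148.5 UMIs a cell compared with 2953.5 and 2543 in NK cells.

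*Serpinb9b*, next to *Serpinb9* on the chromosome and known as an inhibitor of granzyme M, had the narrowest range of the 7. NK cells held 78.6 CPM in vehicle (63 UMIs) and 81.9 in antibiotic (21 UMIs). None of the other 4 classes exceeded 0.60 CPM in either library, and pDC held no UMI, which allows up to 2.67 in vehicle and 14.0 in antibiotic at a floor of 3 counts. The ratio of NK cells to the next class, B cells, was 137 in vehicle (55.9 to 438) and 138 in antibiotic (33.8 to 1215), the latter resting on 2 UMIs in B cells. Relative to the free RNA pool, the level in B cells lay below that of hepatocyte genes, as given below. It is not read as expression, so these ratios set NK cells against a level that free RNA could reach. At 1500 UMIs a cell, 7.42% of vehicle and 10.1% of antibiotic NK cells held a UMI (12.1% in each library without thinning), while the share was at most 0.0746% in the other 4 classes. Among cells that fitted no gate it was 1.19% in vehicle (40 UMIs) and 0.133% in antibiotic (2 UMIs). *Serpinb9b* was thus read in a minority of NK cells, and the 10 cells richest in it held 63.5% of its UMIs in vehicle NK cells. Granzyme M transcripts themselves were sparse in NK cells, with 5 UMIs in vehicle and 2 in antibiotic.

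*Serpinb6b*, known in the mouse as an inhibitor of granzyme A, was detected more broadly in cytotoxic and innate-like cells. Its level was 243 CPM in vehicle NK cells and 183 in antibiotic NK cells, followed by NKT-like cells at 82.0 and 88.3. Other T cells held 33.9 and 59.9, pDC 31.1 and 23.3, and B cells 8.24 and 6.22. NK cells exceeded NKT-like cells 2.97-fold in vehicle (2.54 to 3.45) and 2.08-fold in antibiotic (1.52 to 2.77). A UMI was present in 25.0% of thinned vehicle NK cells and 18.2% of antibiotic NK cells, in 11.1% and 11.4% of NKT-like cells, and in 0.928% and 0.672% of B cells. The unthinned shares in NK cells were 46.1% and 29.3%.

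Its neighbor in name, *Serpinb6a*, the inhibitor of cathepsin G, showed no such gradient. Vehicle levels ran from 8.01 CPM in pDC through 15.9 in B cells, 16.4 in NKT-like cells and 22.8 in other T cells to 27.5 in NK cells. In antibiotic the order was NK cells at 11.7, pDC at 14.0, B cells at 23.7, NKT-like cells at 23.8 and other T cells at 25.7. Every neighbor in the antibiotic order and 2 of the 4 neighboring pairs in the vehicle order lay within counting error of each other. The NK value in antibiotic rests on 3 UMIs, so the different place of NK cells in the 2 orders was not resolvable at this depth.

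*Serpina3g*, the intracellular cathepsin inhibitor of the A3 family, was the most abundant member over all gated cells, with 5310 UMIs. NK cells held 232 CPM in vehicle and 253 in antibiotic, NKT-like cells 124 and 123, and other T cells 67.6 and 76.0. B cells followed at 44.5 and 31.1 and pDC came last at 13.3 (15 UMIs) and 4.67. The latter rests on 1 UMI, where a floor of 3 counts allows up to 14.0. In pDC these levels lay at 0.112 and 0.0401 of the free RNA pool described below. The order of the 5 classes was identical in the 2 libraries, and NK cells exceeded NKT-like cells 1.87-fold in vehicle (1.60 to 2.18) and 2.07-fold in antibiotic (1.59 to 2.64). Thinned shares with a UMI were 19.1% and 29.3% in NK cells and 13.6% and 13.9% in NKT-like cells, against 1.72% and 0% in pDC. Without thinning they were 32.4% and 37.4% in NK cells and 27.1% and 25.4% in NKT-like cells.

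*Serpina3f*, its neighbor on chromosome 12, had another order. It was highest in NKT-like cells at 50.1 CPM in vehicle (840 UMIs) and 57.5 in antibiotic (961 UMIs). NK cells held 17.5 and 35.1, resting on 14 and 9 UMIs, and other T cells 15.2 and 35.4. B cells held 5.27 and 6.22, and pDC 7.12 in vehicle and no UMI in antibiotic, which allows up to 14.0. NKT-like cells exceeded the next class 2.87-fold in vehicle (NK cells, 1.70 to 5.27) and 1.62-fold in antibiotic (other T cells, 1.30 to 2.04). The thinned share with a UMI in NKT-like cells was 6.12% and 7.19% (13.4% and 13.9% without thinning), against 0.597% and 0.672% in B cells. The 2 neighbors were often read in the same cells. Among thinned NKT-like cells, 19.6% of those with a *Serpina3g* UMI also held a *Serpina3f* UMI in vehicle (16.2% to 23.5%), compared with 3.99% of those without (3.32% to 4.75%). In antibiotic the shares were 20.5% and 5.04%, and in other T cells they were 16.3% against 0.808% in vehicle and 23.5% against 1.67% in antibiotic. Median depths of the cells with and without *Serpina3g* were close, 4237 and 4247 UMIs in vehicle NKT-like cells. The part of the 3′ sequence that the 2 genes share in this was not tested.

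*Serpinb1a*, an inhibitor of neutrophil serine proteases, was the one member highest in B cells. They held 351 CPM in vehicle (3066 UMIs) and 408 in antibiotic (1377 UMIs). NKT-like cells came next at 21.5 and 14.5, and the remaining 3 classes held between 11.3 and 15.2 in either library. B cells exceeded NKT-like cells 16.3-fold in vehicle (14.6 to 18.2) and 28.2-fold in antibiotic (24.6 to 32.4). Of thinned B cells, 39.4% in vehicle (37.6% to 41.2%) and 44.5% in antibiotic (41.8% to 47.2%) held a UMI, against 1.40% and 1.54% of other T cells at median depths of 3854 and 3429.5 UMIs. The unthinned shares in B cells were 55.4% and 56.5%. The 3 neutrophil enzymes it inhibits were nearly absent from these cells, with at most 4 UMIs of *Elane*, 5 of *Prtn3* and 3 of *Ctsg* in any class of either library.

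**Figure D1:**
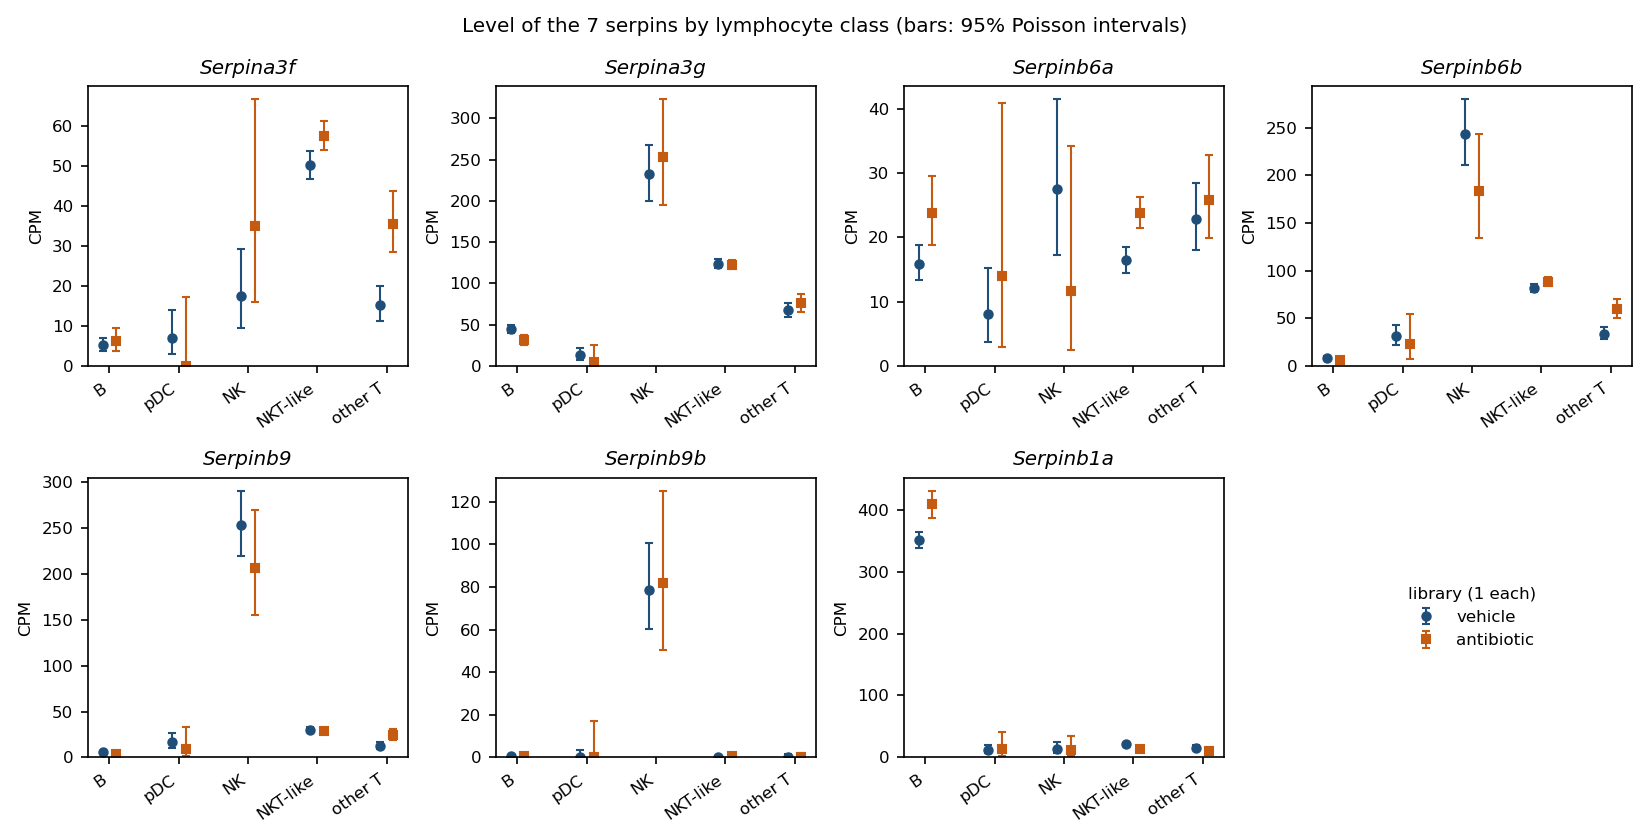
Level of each serpin in CPM (vertical axis, linear and scaled per gene) in the 5 classes (horizontal axis), with vehicle as circles, antibiotic as squares and bars for 95% Poisson intervals of 1 library each. *Serpinb9*, *Serpinb9b*, *Serpinb6b* and *Serpina3g* peak in NK cells, *Serpina3f* in NKT-like cells and *Serpinb1a* in B cells, while the bars of *Serpinb6a* overlap over most classes.

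Within classes, B cells with *Vpreb3* and no *Fcer2a*, a pattern of less mature cells, held *Serpinb1a* at 362 CPM in vehicle and 422 in antibiotic, and B cells with *Fcer2a* and no *Vpreb3* held 365 and 460. *Serpinb1a* thus ran across both kinds of B cell. NK cells divided by *Cxcr6*, a receptor of liver-resident lymphocytes, differed in 2 members. Those with *Cxcr6* (62 vehicle and 36 antibiotic cells) held *Serpina3g* at 419 CPM (337 to 516) and 406 (291 to 551), and those without (194 and 63 cells) at 165 (134 to 201) and 154 (98.9 to 230). *Serpinb9* ran the other way, at 137 (91.5 to 196) in vehicle NK cells with *Cxcr6* and 295 (253 to 343) in those without. In antibiotic the intervals of *Serpinb9* met at their ends, with 109 (54.4 to 194.9, 11 UMIs) against 270 (194.7 to 365). *Serpinb9b* and *Serpinb6b* were lower with *Cxcr6* by value, but their intervals overlapped in vehicle (56.5 against 86.6 for *Serpinb9b*, 188 against 263 for *Serpinb6b*), as did those of *Serpinb6b* in antibiotic, at 158 against 199. In antibiotic *Serpinb9b* stood at 19.8 (2 UMIs, 2.40 to 71.5) with *Cxcr6* and at 122 (73.6 to 191) without.

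NKT-like cells with Cd4 held *Serpina3f* at 68.1 CPM in vehicle and 59.3 in antibiotic, and those with neither Cd4 nor *Cd8a* at 48.8 and 58.1. Cells with a UMI of *Trav11*, the invariant receptor segment of murine iNKT cells, held 61.4 in vehicle (312 cells) and 82.7 in antibiotic (540 cells). *Serpinb9* differed little over these subsets, between 28.2 and 31.0 in both libraries. In other T cells with *Cd8a* or *Cd8b1* and no Cd4, *Serpina3g* was read at 43.4 CPM (41 UMIs) in vehicle cells with *Ccl5* and not in those without, where a floor of 3 counts allows up to 8.61. In antibiotic it stood at 18.7 (6 UMIs) with *Ccl5* and had no UMI without, but the floor there is 21.3, so no difference was detectable at this depth. A further split, chosen after its values were seen, took NKT-like cells by the summed UMIs of the interferon-stimulated genes *Isg15*, *Ifit1*, *Ifit3* and *Ifi27l2a*. *Serpina3f* stood at 55.8 CPM in vehicle cells with at least 3 such UMIs and at 28.5 in cells with none, and at 66.3 and 49.7 in antibiotic. *Serpina3g* showed no such step in vehicle, at 128 and 131, and in antibiotic it stood at 140 and 108.

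Over the 10 class and library values, the genes whose pattern came closest to a member are named as a description. Likeness was Pearson's correlation of log2(CPM + 10) over 9982 genes, and the points share libraries, depth and gates. For *Serpinb9b* they were *Styk1*, *Klri2* and *S1pr5*, all read almost only in NK cells (r = 0.99 or higher), and for *Serpinb9* they were *Klra3*, *Adgrg3* and *5830432E09Rik* (r = 0.98). *Serpinb1a* was closest to *4930426D05Rik*, *Klhl14* and *Pik3c2b* (r = 1.00) and *Serpinb6b* to the cathepsin D gene *Ctsd*, *Lta4h* and *Gatad2a* (r = 0.99, 0.98 and 0.98). *Lpar6*, *Ahcyl2* and *Podnl1* came closest to *Serpina3f* and *Ptpn12*, *Ss18* and *Evl* to *Serpina3g* (r = 0.97 or higher in each case). *Serpinb6a* had no partner as close, with r = 0.94 for *2610002M06Rik*, then *Cwc22* and *Rbks*. Among the members themselves, *Serpinb9* ran with *Serpinb9b* and with *Serpinb6b* (r = 0.93 each), while *Serpina3f* and *Serpina3g* reached r = 0.79.

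Between the libraries, other T cells were the class where several members differed. With a fold of at least 1.5 and at least 30 UMIs over both libraries, 3 of 6 members were higher in antibiotic other T cells, where 8.80% of all 8316 genes were, and none was lower, where 6.88% of all genes were. *Serpina3f* went from 15.2 CPM (52 UMIs) to 35.4 (88 UMIs), a ratio of 2.33 (1.63 to 3.34). *Serpinb9* went from 12.6 (43 UMIs) to 24.5 (61 UMIs), a ratio of 1.95 (1.30 to 2.95), and *Serpinb6b* from 33.9 (116 UMIs) to 59.9 (149 UMIs), a ratio of 1.77 (1.38 to 2.27). These intervals take each UMI as independent. The *Serpina3f* UMIs lay in 26 vehicle and 54 antibiotic cells, with up to 9 and 7 in a cell. Thinned shares of cells with a *Serpina3f* UMI were 1.65% (0.88% to 2.81%) in vehicle and 3.38% (2.13% to 5.08%) in antibiotic, with overlapping intervals. Those of *Serpinb9* also overlapped, at 1.91% (1.07% to 3.13%) and 3.69% (2.38% to 5.44%). Those of *Serpinb6b*, at 4.45% (3.12% to 6.14%) and 8.15% (6.17% to 10.5%), did not. The median log2 ratio of the 6 members was 0.50, against 0.03 over all genes of the class. *Serpina3g*, *Serpinb6a* and *Serpinb1a* stood at ratios of 1.13 (0.92 to 1.37), 1.13 (0.80 to 1.59) and 0.74 (0.45 to 1.19).

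The makeup of the other T class moved with this result. At 1500 UMIs a cell, a UMI of *Klrb1c*, which encodes NK1.1, was present in 7.76% of vehicle and 25.2% of antibiotic other T cells, one of *Trav11* in 0.509% and 3.69%, and one of *Il2rb* in 15.6% and 30.3%. *Cd8a* moved the other way, from 16.7% to 7.23%, as did *Ccr7*, from 29.9% to 20.9%. Other T cells without any UMI of *Klrb1c* or *Trav11* (674 vehicle and 381 antibiotic cells, a split chosen after the values were seen) held *Serpina3f* at 15.5 and 18.3 CPM and *Serpinb6b* at 30.6 and 33.2, ratios of 1.18 (0.71 to 1.95) and 1.09 (0.75 to 1.56). *Serpinb9* stood at 10.6 and 16.2 there, a ratio of 1.53 (0.86 to 2.69), so that 1 of 6 members passed the fold, where 7.44% of genes did. *Serpina3g* stood at 57.3 and 33.8 in these cells, a ratio of 0.59 (0.42 to 0.81). In the cells with a UMI of *Klrb1c* or *Trav11* (112 and 269 cells) *Serpina3f* still differed, at 13.8 and 60.5, a ratio of 4.37 (2.0 to 11.3). *Serpinb6b* stood at 53.3 and 99.1 in them, a ratio of 1.86 (1.21 to 2.96). How far makeup and level per cell each account for the class ratios cannot be told apart here.

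**Figure D2:**
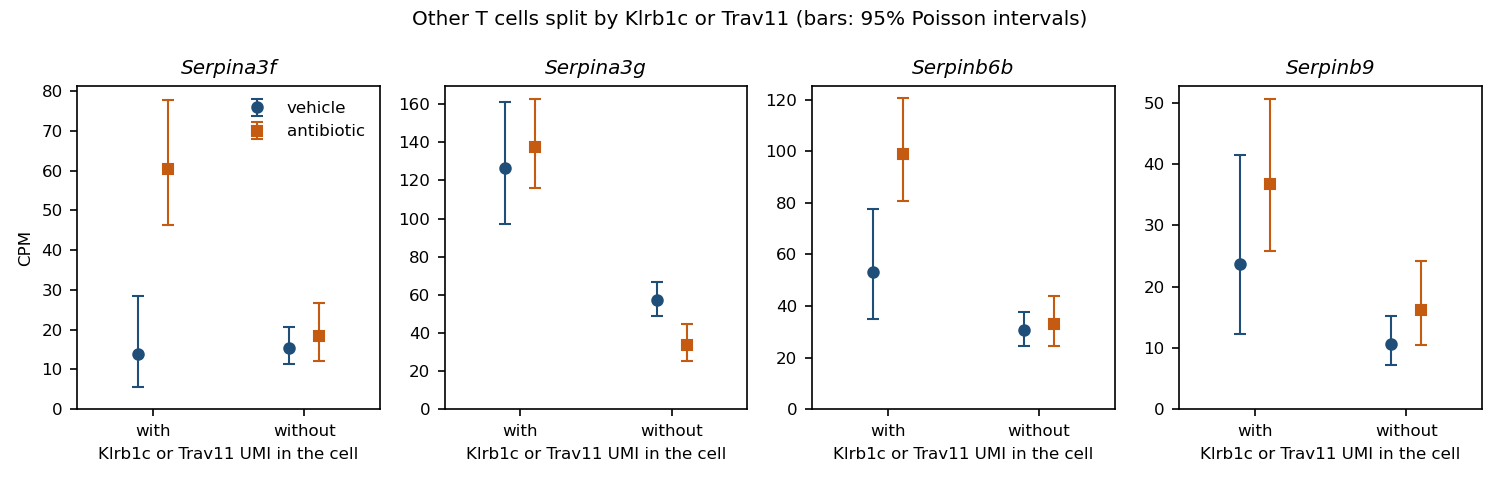
Level in CPM (vertical axes from 0) of 4 serpins in other T cells with and without a UMI of *Klrb1c* or *Trav11* (horizontal axis), with vehicle as circles, antibiotic as squares and bars for 95% Poisson intervals of 1 library each. *Serpina3f* stands at 13.8 and 60.5 in cells with such a UMI and at 15.5 and 18.3 in cells without one, and *Serpina3g* at 126 and 138 with one and at 57.3 and 33.8 without.

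In the 4 other classes no member passed a fold of 1.5 in either direction. The tested members were 6 of 7 in B cells, where 7.56% of genes were higher and 5.10% lower by that fold, and 6 in NKT-like cells, where 5.64% were higher and 9.37% lower. They were 4 in NK cells, where 10.8% were higher and 12.1% lower, and 1 in pDC, where 9.46% were higher and 16.1% lower. The medians of the log2 ratios over the tested members were -0.09 in B cells, 0.05 in NKT-like cells and -0.12 in NK cells, against 0.07, -0.02 and 0.00 over all genes of these classes.

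Smaller ratios whose counting intervals left out 1 were seen in the deeply counted classes. In NKT-like cells *Serpinb6a* stood at 16.4 CPM in vehicle and 23.8 in antibiotic, a ratio of 1.45 (1.24 to 1.70), and *Serpina3f* had a ratio of 1.15 (1.04 to 1.26). *Serpinb1a* had a ratio of 0.67 there (0.57 to 0.79). The levels of *Serpinb6a* and *Serpinb1a* in these cells lay below those of the free RNA pool described below. *Serpina3g* and *Serpinb9* showed no difference beyond counting error in NKT-like cells, with ratios of 0.99 (0.93 to 1.05) and 0.96 (0.84 to 1.09). In B cells *Serpinb1a* had a ratio of 1.16 (1.09 to 1.24), *Serpinb6a* of 1.49 (1.12 to 1.98) and *Serpina3g* of 0.70 (0.56 to 0.87). The levels of *Serpina3g* there lay near those of free RNA. The B cell ratio of *Serpinb1a* was 0.97 when cells needed at least 2500 UMIs, and that of *Serpina3g* was 0.94. In NK cells the intervals of all 4 tested members included 1, from 0.75 for *Serpinb6b* (0.54 to 1.04) to 1.09 for *Serpina3g* (0.81 to 1.46).

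**Figure D3:**
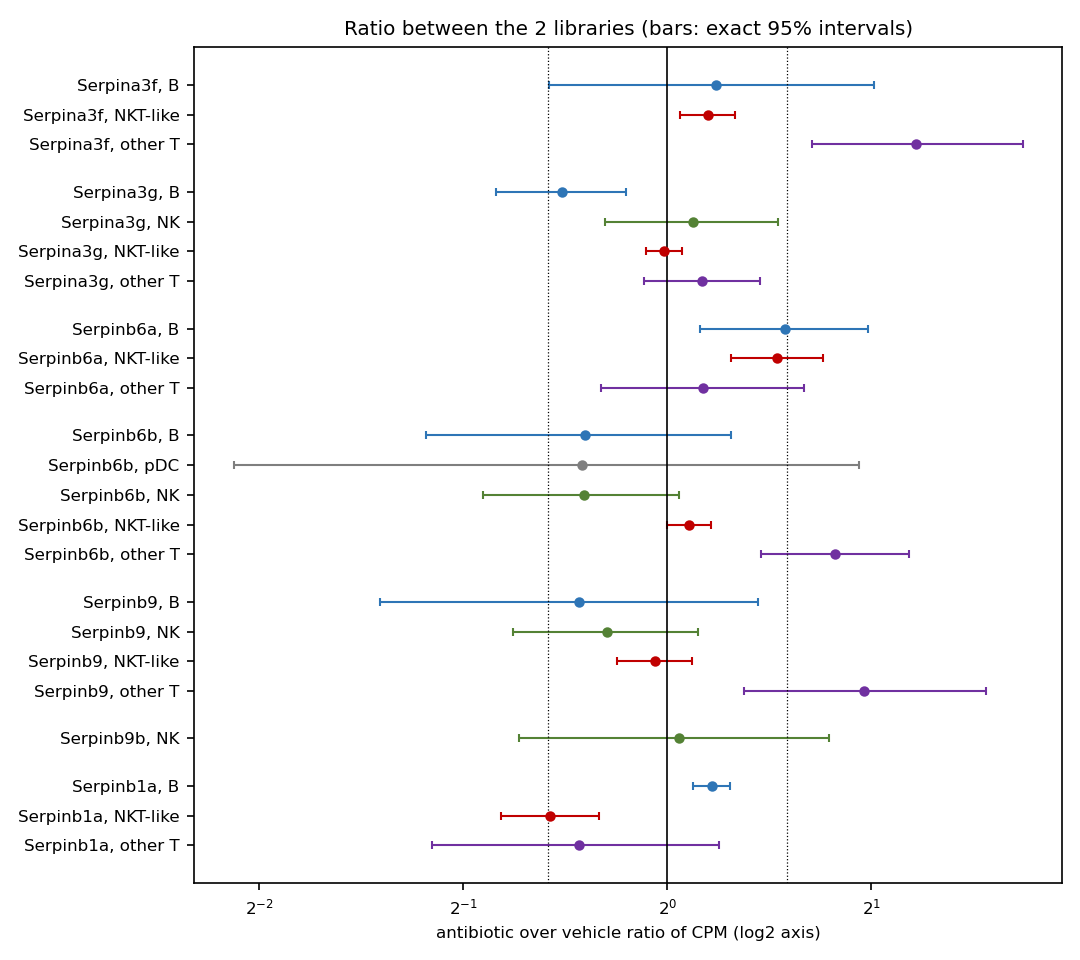
Antibiotic over vehicle ratio of each serpin (horizontal log2 axis, points) in every class with at least 30 UMIs over the 2 libraries, with bars for exact 95% intervals of counting error and dotted lines at a fold of 1.5. The 3 points beyond the right dotted line are *Serpina3f*, *Serpinb6b* and *Serpinb9* in other T cells.

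NK receptor-bearing cells outside the NK gate gave different values for the granzyme inhibitors. Cells with an *Ncr1* UMI that fitted no gate, which by the order of the gates also held a Cd3 UMI, numbered 402 in vehicle and 121 in antibiotic. They held *Serpinb9* at 117 and 65.2 CPM, a ratio of 0.56 (0.34 to 0.86), and *Serpinb9b* at 24.8 and 5.67, resting on 36 and 2 UMIs. *Serpina3g* stood at 345 and 326 in them and *Serpinb6b* at 154 and 170. With the NK gate widened to *Ncr1* without *Trac*, NK cells exceeded NKT-like cells in *Serpinb9* by 2.44 on the log2 scale in vehicle and by 2.10 in antibiotic, where the narrower gate gave 3.06 and 2.83.

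The proteases that these serpins are known to meet were counted in the same way. Of a list of 19 proteases and related granule proteins, 7 of 16 tested were lower in antibiotic by a fold of 1.5 in NKT-like cells, where 9.37% of all genes were, among them *Gzma*, *Gzmb*, *Gzmc* and *Gzmm*, and 1 was higher, the perforin gene *Prf1* at 5.25 and 8.14 CPM. In other T cells 5 of 15 were lower (6.88% of all genes) and in NK cells 3 of 12 (12.1% of all genes). In B cells 4 of 13 were lower (5.10% of all genes) and in pDC 2 of 12, a share near the 16.1% of all genes there, and none was higher in these 4 classes. The median log2 ratios of the list were -0.47 in NKT-like cells, -0.30 in other T cells, -0.39 in NK cells, -0.37 in B cells and -0.21 in pDC, against -0.02, 0.03, 0.00, 0.07 and -0.03 over all genes. Granzyme transcripts in B cells, which are not known to make them in quantity, stood at 231 and 25.8 CPM for *Gzma* and at 59.4 and 7.71 for *Gzmb*, so the level outside the cytotoxic cells differed between the libraries too. Its part in the ratios of the other classes was not tested. Of a list of 14 other protease inhibitors, 3 of 8 tested were lower in NKT-like cells, where 9.37% of all genes were. In other T cells 2 of 8 were lower (6.88% of all genes) and in NK cells 4 of 6 (12.1% of all genes). In B cells 4 of 8 were lower (5.10% of all genes) and in pDC 1 of 7, a share near the 16.1% of all genes there. None was higher. The median log2 ratios of this list were -0.38 in NKT-like cells, -0.11 in other T cells, -0.64 in NK cells, -0.50 in B cells and 0.07 in pDC. Among these inhibitors, *Cst7*, the leukocyte cystatin that restrains cathepsins of the granule pathway, stood at 317 and 183 in NK cells, a ratio of 0.58 (0.41 to 0.79).

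The ratio of *Serpinb9* between the libraries lay above that of *Gzmb* in NKT-like and other T cells. In NK cells it lay above by value, with intervals that overlap, and the difference between the 2 ratios was not tested. In NKT-like cells *Gzmb* stood at 318 CPM in vehicle and 65.9 in antibiotic, a ratio of 0.21 (0.19 to 0.22), where *Serpinb9* had the ratio of 0.96 given above. In other T cells *Gzmb* stood at 101 and 44.6, a ratio of 0.44 (0.35 to 0.55), while *Serpinb9* had a ratio of 1.95. Without the cells holding *Klrb1c* or *Trav11* that *Serpinb9* ratio was 1.53 (0.86 to 2.69). The free RNA pool described below held *Gzmb* at 270 CPM in vehicle and 91.0 in antibiotic. *Gzmb* lay at 0.374 and 0.490 of this pool in other T cells and at 1.18 and 0.724 in NKT-like cells. The part of free RNA in the *Gzmb* ratios was not tested. In NK cells *Gzmb* stood at 1321 and 718, a ratio of 0.54 (0.46 to 0.64), while the ratio of *Serpinb9* was 0.82 (0.59 to 1.11), and these intervals overlap. In NK cells without *Cxcr6* the ratios were 0.76 (0.63 to 0.92) for *Gzmb* and 0.91 (0.64 to 1.29) for *Serpinb9*. Across the 10 class and library values *Serpinb9* still followed *Gzmb* (r = 0.89) and *Prf1* (r = 0.97). Within NKT-like cells at 1500 UMIs a cell, *Gzmb* was read in 27.5% of vehicle cells with a *Serpinb9* UMI (20.5% to 35.4%) and in 22.8% of those without (21.4% to 24.2%). In antibiotic the shares were 11.7% (7.37% to 17.3%) and 6.91% (6.14% to 7.74%), so that *Gzmb* was read in fewer cells of both kinds.

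**Figure D4:**
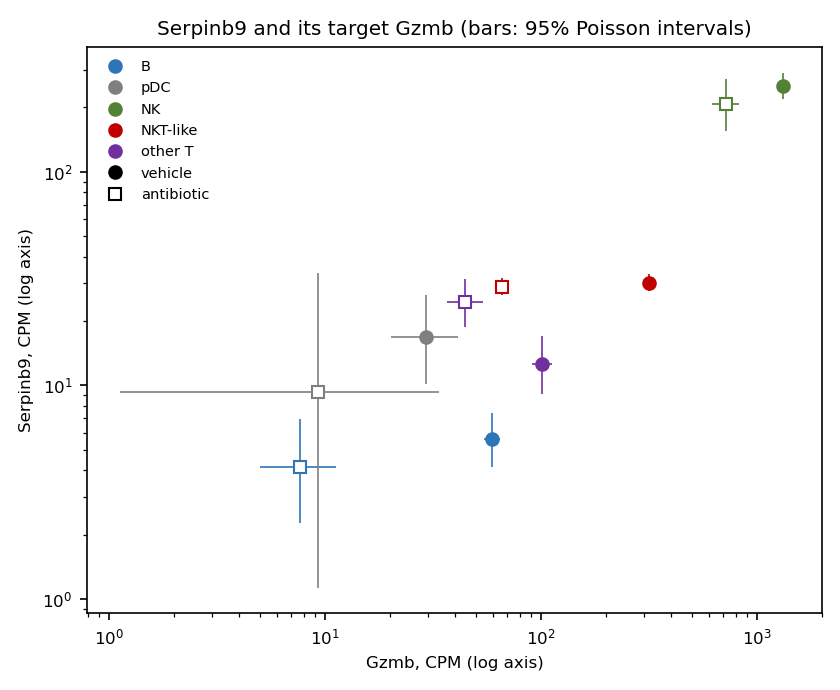
*Serpinb9* against *Gzmb* in CPM (both axes logarithmic) for the 5 classes in vehicle (filled circles) and antibiotic (open squares), with bars for 95% Poisson intervals of 1 library each. From vehicle to antibiotic the NKT-like point shifts left, from 318 to 65.9 of *Gzmb*, with *Serpinb9* at 30.3 and 29.0, and the other T point shifts left and up.

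*Gzma*, whose product *Serpinb6b* inhibits, stood at 318 and 83.0 CPM in NKT-like cells, a ratio of 0.26 (0.25 to 0.28) where *Serpinb6b* had 1.08 (1.00 to 1.16). *Gzma* in these cells lay at 0.405 and 0.248 of its level in the free RNA pool described below, and *Serpinb6b* at 1.82 and 1.54. The part of free RNA in the *Gzma* ratio was not tested. In NK cells *Gzma* stood at 12528 and 8158, a ratio of 0.65 (0.62 to 0.68), and *Serpinb6b* had 0.75 (0.54 to 1.04) there, so both were lower by value and their intervals overlap. *Gzmm*, the target of *Serpinb9b*, had too few UMIs in NK cells to compare. Of the cathepsins that *Serpina3g* is known to act on, *Ctsl* and *Ctsb* were highest in pDC, where *Serpina3g* was lowest. *Ctsl* stood at 1569 and 1218 in pDC and at 27.3 or less in every other class, and *Ctsb* at 2129 and 1768 in pDC. Across the 10 values *Serpina3g* and *Ctsl* had r = -0.76, over points in which pDC combined low *Serpina3g* with high *Ctsl*. The antibiotic pDC value of *Serpina3g* among them rests on 1 UMI.

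RNA free of cells was read in barcodes of 1 to 50 UMIs, and its share in a class bears on low levels. In B cells of the vehicle library, 7 genes of T and NK cells stood at 0.0870 to 0.295 of their level in this pool, and in antibiotic at 0.0770 to 0.0987, while hepatocyte genes stood at 0.262 and 0.301. *Serpina3f*, *Serpinb6b*, *Serpinb9* and *Serpinb9b* in B cells lay within the span of these values, at 0.157, 0.183, 0.256 and 0.163 in vehicle and at 0.126, 0.109, 0.168 and 0.213 in antibiotic, so their values in B cells are not read as expression. *Serpina3g* in B cells lay above both gene sets in vehicle, at 0.372, and between them in antibiotic, at 0.267. With free RNA subtracted by the hepatocyte share, 17.8 CPM and 0 were left, so its B cell ratio is not read as a change in expression. *Serpinb6a* in B cells lay above both gene sets, at 0.496 and 0.618, and in NKT-like cells it lay at 0.511 and 0.620. The pool held it at 32.1 CPM in vehicle and 38.4 in antibiotic. With free RNA subtracted, 14.6 and 22.0 CPM of *Serpinb6a* were left in NKT-like cells. *Serpinb1a* in NKT-like cells lay at 0.152 and 0.113 of the pool, near the B cell gene *Cd79a* at 0.147 and 0.0947 in the same cells. Its level in the gated classes other than B cells is therefore near that of free RNA, and the ratio of 0.67 in NKT-like cells rests on such levels. With free RNA subtracted, 7.73 CPM were left in vehicle NKT-like cells and 0.0731 in antibiotic. Cells that fitted no gate held *Serpinb1a* at 70.2 CPM in vehicle (331 UMIs) and 51.6 in antibiotic (127 UMIs). The hepatocyte serpins *Serpina1a*, *Serpina1b*, *Serpina1c*, *Serpina1d*, *Serpina1e*, *Serpina3k* and *Serpinc1* held 35 to 123 UMIs each in gated cells.

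**Figure D5:**
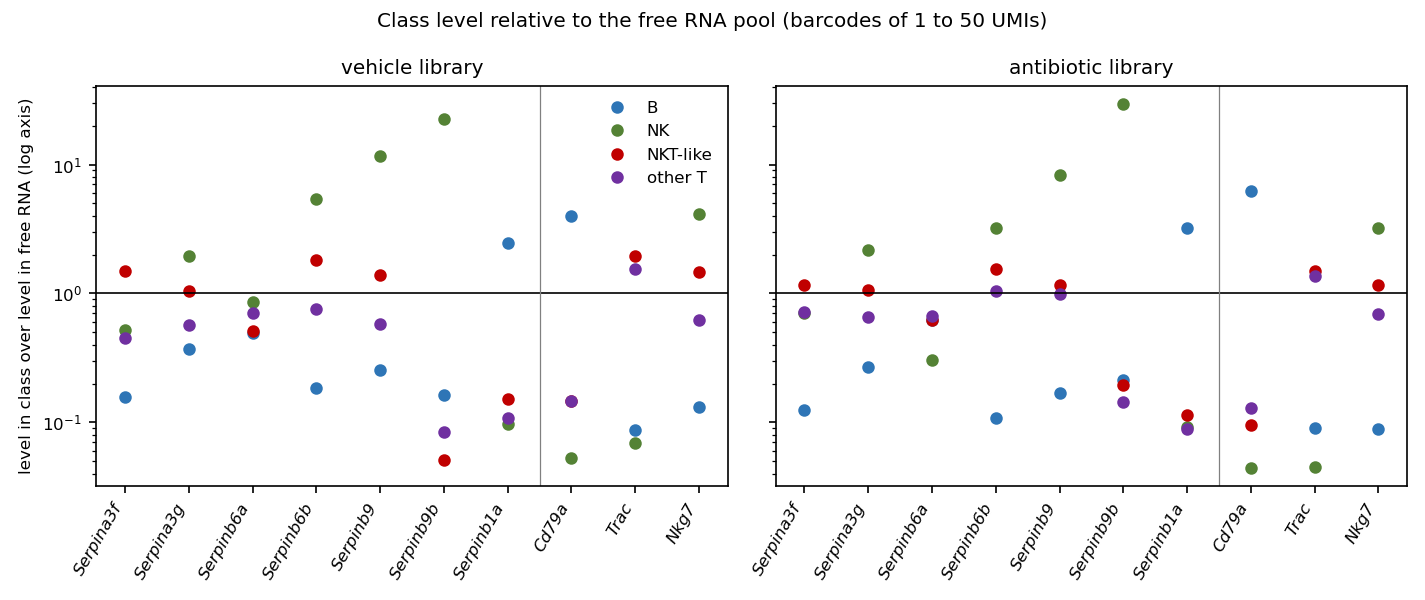
Level of the 7 serpins and of the lineage genes *Cd79a*, *Trac* and *Nkg7* in B, NK, NKT-like and other T cells divided by the level in the free RNA pool (vertical log axis, 1 panel per library, values of 0 not drawn). *Serpinb1a* lies at 2.48 and 3.19 in B cells and at 0.152 or less in the other 3 classes drawn, and *Serpinb9* at 11.6 and 8.34 in NK cells.

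Of the 55 other serpin rows, 25 had no UMI in the gated cells, 17 had 1 to 29 and 13 had at least 30. Beyond the hepatocyte genes these were *Serpini1* (413 UMIs), *Serpinf1* (112), *Serpine2* (61), *Serpinb7* (47), *Serpinb10* (46) and *Serpinh1* (38). *Serpini1*, known as the neuroserpin gene, was highest by value in B cells at 20.1 CPM in vehicle and 23.7 in antibiotic, a ratio of 1.18 (0.89 to 1.54). Its vehicle interval in B cells (17.3 to 23.4) overlapped that in pDC, at 16.0 (9.49 to 25.3). The antibiotic pDC value rests on 1 UMI. *Serpinb7* was read mainly in B cells, with 32 and 12 of its 47 UMIs. *Serpinb10* was read mainly in ungated cells, at 22.5 and 13.0.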

How the data were processed

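Single-cell 3′ libraries of sorted CD45+ liver leukocytes had been made with the 10x Chromium platform, and Cell Ranger, bcl2fastq and the mm10 build are named in the processing notes of the submitters (without version numbers in the sources used here). UMI counts were taken as deposited by the authors, as whole numbers for 737280 barcodes per library with no normalization or filter on cells applied. The counts were read with Python 3.11.15, numpy 2.4.6, scipy 1.17.1 and pandas 2.3.3. Cells and classes were taken by the thresholds stated with the results, doublets were not called, and cells with UMIs of 2 lineages were left out as an alternative. At least 1 UMI of a 2nd lineage sufficed. Such cells made up 47.8% of B, 65.5% of pDC, 35.2% of NK, 43.9% of NKT-like and 42.4% of other T cells in vehicle. In antibiotic they made up 36.5%, 50%, 21.2%, 21.6% and 20.6% in that order. Levels are summed UMIs in CPM with exact Poisson intervals, ratios have exact conditional intervals of 2 Poisson counts, and shares have Clopper-Pearson intervals, all at 95%. For shares each cell was also thinned to 1500 UMIs. The ratio code was tested on simulated counts. Of the gene identifiers 99.0% matched GENCODE M21. The members, gene lists and splits were chosen with earlier results of these data known. The 7 members were named in every class, other serpins from 30 UMIs, and 3 genes of closest pattern per member among those with at least 100 UMIs. No replicate exists, so no test was made. Protein sequences were not used here.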

Additional observations from a re-analysis of the deposited data

Results flagged for a closer look

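*Serpinb1a* moved in opposite directions between the libraries in 2 classes, with an antibiotic over vehicle ratio of 1.16 in B cells and 0.672 in NKT-like cells, each with a counting interval that leaves out 1. The difference between the classes was not tested. The NKT-like level lay at 0.152 of the free RNA pool in vehicle and 0.113 in antibiotic.

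Barcodes of more than 50 and under 1000 UMIs, below the threshold for cells and outside every comparison, held members above the 3 counts taken as the floor. In vehicle they held 58 UMIs of *Serpina3f*, 248 of *Serpina3g*, 93 of *Serpinb6a*, 103 of *Serpinb6b*, 57 of *Serpinb9* and 452 of *Serpinb1a*. In antibiotic they held 36, 95, 25, 36, 20 and 242 UMIs of the same genes in that order. In CPM of these barcodes, *Serpinb1a* stood at 201 in vehicle and 257 in antibiotic, between its level in B cells and that in the free RNA pool, and *Serpina3g* at 110 and 101.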

How the results depend on the processing

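No paired analysis was possible because each condition has 1 library. Values here are log2 ratios. Alternatives were run for the antibiotic over vehicle ratio of 6 members in the class where their vehicle level was highest. They were also run for the highest class over the next, and for the count of members higher in other T cells. *Serpinb6a* was left out of the first of these because its 22 and 3 UMIs in NK cells fell under the minimum of 30. Of these 202 alternative values, 181 stayed within the counting interval of the reported value (for the count, within a factor of 1.5). *Serpinb1a* in B cells reversed to -0.043 with a minimum of 2500 UMIs a cell, against 0.22, and stood at 0.31 with free RNA subtracted. *Serpina3f* in NKT-like cells stood at 0.34 with a denominator free of mitochondrial, ribosomal and *Malat1* UMIs, which moves every NKT-like ratio by 0.14, against 0.20. With cells thinned to 1500 UMIs, NK over NKT-like cells in vehicle stood at 0.53 for *Serpina3g* and 1.28 for *Serpinb6b*, against 0.91 and 1.57. With free RNA subtracted the same values were 1.14 and 1.87, and 3.44 for *Serpinb9* against 3.06. With NK cells taken by *Ncr1* and no *Trac*, an alternative added after seeing the data, they were 1.32, 1.17 and 2.44, and *Serpinb9* in antibiotic stood at 2.10 against 2.83. *Serpinb1a* in B over NKT-like cells in vehicle, 4.03, ranged over 3.86 with a minimum of 2500 UMIs, 4.28 as a mean over cells, 4.27 thinned, 4.87 without cells of 2 lineages and 5.78 with free RNA subtracted. In antibiotic it was 4.82, against 4.40 with the higher minimum and 5.40 without cells of 2 lineages. Without other T cells holding *Klrb1c* or *Trav11*, an alternative also added after seeing the data, *Serpina3f* in antibiotic NKT-like over other T cells rose from 0.70 to 1.65, and 1 member in place of 3 was higher by 1.5-fold in other T cells. The cause of these shifts was not tested. Among the single ratios outside the highest class, 139 of 153 alternative values stayed within their interval and none reversed a ratio whose interval left out 1. Where too few UMIs were left, as for *Serpinb9b* in B cells and, with free RNA subtracted, for 4 members in B cells and for *Serpinb1a* in NKT-like and other T cells, an alternative gave no value. NK cells and pDC of the antibiotic library were the shallowest, with 99 and 34 cells, and limit what could be seen there.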
